A study of Danio rerio with 36 samples.

Results

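Regenerating caudal fins of zebrafish (Danio rerio) at 2 days post amputation (dpa) were compared with uninjured fins at 0 dpa, by RNA-seq of whole fins from 1 batch. The comparison rests on 4 libraries, 2 at each day, chosen by the day, batch and genotype in their titles. They are 4 of the 18 RNA-seq libraries in a series of 36 samples, whose 18 chromatin accessibility samples were not analysed here. The 2 dpa group held 1 library of fins with a deletion of LEN and 1 library of whole fins for which the title names no genotype. The 0 dpa group held the same pair of genotypes. The name under which the second kind was deposited and the stated strain, outbred Ekkwill (EK), mark it as wild type, and it is called so here. LEN is the lepb-linked enhancer, noncoding DNA known from earlier work to regulate the leptin gene lepb after injury. Whether the deletion was carried on one or both chromosomes is not stated in the sources used here. Per the labels, clips of caudal fins from 15 fish aged 3 to 12 months made a pool, and the extraction text lists time points other than 2 dpa, so that the day comes from the titles. Genotype entered the test as a block, which leaves the 2 pools at a day as the replicates. A change in a whole fin can come from fewer cells of a type or from less RNA per cell, and bulk libraries cannot tell these apart.

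After amputation a zebrafish fin restores skin, connective tissue and the bone of its rays. Epidermis first covers the wound, and the stump tissue beneath it then gives rise to a blastema, a mass of proliferating lineage-restricted cells. Fgf, Wnt, Hedgehog, Bmp, activin and retinoic acid signals are known to govern its formation and growth, while osteoblasts rebuild bone and fibroblasts lay down matrix and the fibrils that stiffen the new tip.

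The 4 libraries held 25367791 to 28679133 reads on genes, and between 13110 and 13203 genes had a read. The tissue was checked with krt5, a basal keratin of the epidermis, col1a1a, a collagen chain of connective tissue and bone, and sp7, a transcription factor of osteoblasts. The first took more reads than any other gene in each library, with 59481 and 57398 library-scaled counts (CPM) at 2 dpa, against 69153 and 81976 CPM at 0 dpa. Levels of col1a1a were 14398 and 16100 CPM at 2 dpa, against 4447 and 5177 CPM at 0 dpa. For sp7 they were 7.30 and 8.43 CPM at 2 dpa, against 5.62 and 3.70 CPM at 0 dpa. The deletion was checked with lepb, which encodes the hormone leptin b. At 2 dpa lepb had 8 reads in LEN deletion fins (0.285 CPM, exact Poisson 95% interval 0.123 to 0.561) and 3698 reads in wild-type fins (128 CPM, interval 124 to 132). At 0 dpa it had 1 read in each genotype, 0.0372 CPM in LEN deletion fins and 0.0407 CPM in wild-type fins. The intervals cover counting error only. The lepb values went with the labels, and lepb did not pass the expression filter of the test, so that it has no p-value here. One library stood apart from the other fin of its day in immune genes: the summed level of the 44 interferon response genes found was 14724 CPM in LEN deletion fins and 10411 CPM in wild-type fins at 0 dpa.

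Fins at 2 dpa differed from uninjured fins across most of the measured transcriptome. Of 11873 genes tested with edgeR's quasi-likelihood test, 7453 were called at an adjusted p under 0.05 (62.8%). Of these, 3722 (31.3% of genes tested) were higher at 2 dpa and 3731 (31.4%) were lower. A change of at least 2-fold was called for 3384 genes (28.5%), 1485 of them higher and 1899 lower, and one of at least 8-fold for 224 higher and 263 lower genes. The 2 days did not overlap for 9748 genes (82.1%). The count fell to 4868 without the LEN deletion library at 2 dpa and to 4679 without the wild-type library at 2 dpa. Nothing in the labels says more of how the pools relate. With the genotype block, the p-values rest on how far the day ratios of the 2 genotypes differ, moderated over genes. A true difference in response between the genotypes counts as error in this test.

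The log2 ratio of 2 over 0 dpa had the same sign in LEN deletion and wild-type fins for 10452 of the 11873 genes tested (88%). It did for 7452 of the 7453 called genes, but the 2 pools of a day are the replicates of the test, so that a gene is called largely where they agree. Across the 11873 genes the log2 ratios of the 2 genotypes had a Pearson r of 0.927 and a Spearman rho of 0.909, with a median absolute gap of 0.209. This is a description across genes of 4 libraries, and genes are not independent replicates. Of 9759 genes with at least 5 CPM in a library, 226 had log2 ratios more than 1 apart and 20 more than 2 apart. The widest gap was that of lepb, whose log2 ratio was 1.69 in LEN deletion fins and 10.13 in wild-type fins. Among genes picked after their values were seen, the second widest was mpeg1.3, of the perforin-like family known from macrophages, at -7.03 in LEN deletion fins and -2.61 in wild-type fins. With 1 library for each genotype and day, these gaps have no test.

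**Figure D1:**
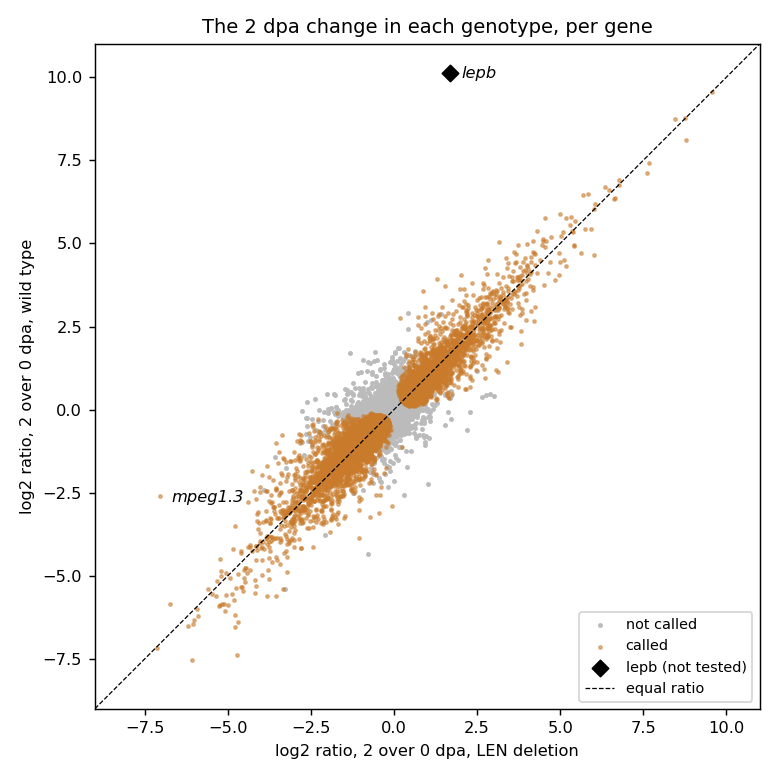
Each point is a gene; the axes give the log2 ratio of 2 over 0 dpa in LEN deletion fins (horizontal) and wild-type fins (vertical), with called genes in orange and others in grey. Points follow the line of equal ratios, whereas lepb lies far off it at 1.69 and 10.13, and mpeg1.3 lies off it at -7.03 and -2.61.

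Among the tested genes with a mean level above 5 CPM, which leave out lepb, the largest increase was that of cmn, which encodes calymmin, a secreted protein first described in the zebrafish notochord. It had 168 and 179 CPM at 2 dpa, against 0.149 and 0.163 CPM at 0 dpa (log2 fold change of 2 over 0 dpa, log2FC, 10.08, SE 0.20, adjusted p = 4.47e-10). At 0 dpa these levels rest on 4 reads in each library, which leaves the size of the fold uncertain. The actinodin genes and1 and and2 encode proteins of the actinotrichia, the fibrils at the fin's edge. The gene and1 had 842 and 893 CPM at 2 dpa, against 9.49 and 9.07 CPM at 0 dpa (log2FC 6.54, SE 0.13). For and2 the levels were 117 and 187 CPM at 2 dpa, against 0.261 and 0.366 CPM at 0 dpa (log2FC 8.90, SE 0.19). The uninjured fins held only 7 and 9 reads of and2, against 255 and 223 reads of and1. In LEN deletion fins at 2 dpa and2 was at 117 CPM where wild-type fins had 187 CPM.

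Other genes of this group encode secreted, membrane and enzyme proteins. Coagulation factor V, f5, had 262 and 299 CPM at 2 dpa, against 0.521 and 1.02 CPM at 0 dpa (log2FC 8.52). Tryptophan hydroxylase, tph1b, is the gene whose promoter drives a fibroblast transgene used elsewhere in the series. Its levels were 499.6 and 636 CPM at 2 dpa, against 2.46 and 4.51 CPM at 0 dpa (log2FC 7.38). Tenascin C, tnc, is a matrix glycoprotein of wounds and blastemas, and it had 3735 and 3743 CPM at 2 dpa, against 33.9 and 34.3 CPM at 0 dpa (log2FC 6.78, SE 0.13, adjusted p = 4.47e-10). The membrane metalloprotease gene adam8a had 1006 and 1145 CPM at 2 dpa, against 15 and 15.6 CPM at 0 dpa (log2FC 6.13). The keratin krt93 reached 2582 and 2545 CPM at 2 dpa, against 25.7 and 30.7 CPM at 0 dpa (log2FC 6.51). Also on the list, frem3 and frem2a belong to the Fraser complex of the epidermal basement membrane, with log2FC values of 6.59 and 6.11. The rest were ggt1a, a gamma-glutamyltransferase (log2FC 8.40), pnocb, a precursor of opioid-like peptides (log2FC 6.77), pdlim3b, an actin-associated LIM protein (log2FC 6.57), and slc1a4, a carrier of neutral amino acids (log2FC 6.12).

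The largest decreases included skin immune signals and genes of muscle growth and cartilage matrix. The gene ptgdsb, for a lipocalin-type prostaglandin D synthase, had 134 and 104 CPM at 2 dpa, against 8814 and 9190.4 CPM at 0 dpa (log2FC -6.25, SE 0.16, adjusted p = 3.13e-09). It fell in both genotypes. The chemokine ccl27b had 4.49 and 3.40 CPM at 2 dpa, against 333 and 315 CPM at 0 dpa (log2FC -6.37), and a second chemokine, ccl19b, had 0.926 and 0.624 CPM at 2 dpa, against 48.6 and 29.2 CPM at 0 dpa (log2FC -5.64). The transcription factor foxn1 is known from skin and thymus epithelium in mammals, and had 0.249 and 0.139 CPM at 2 dpa, against 19.5 and 13.5 CPM at 0 dpa (log2FC -6.38). Myostatin b, mstnb, is a restraint on muscle growth in mammals as myostatin, and had 0.392 and 0.277 CPM at 2 dpa, against 27.5 and 26 CPM at 0 dpa (log2FC -6.31). Also on the list were igfn1.1, an immunoglobulin and fibronectin domain protein (log2FC -7.18), cyb5r2, a cytochrome b5 reductase (log2FC -6.21), acss2l, an acetyl-CoA synthetase-like gene (log2FC -5.95), and col9a3, a chain of the cartilage collagen IX (log2FC -5.76). Some decreases were uneven between genotypes. Log2 ratios in LEN deletion and wild-type fins were -4.73 and -7.37 for cyb5r2, and -4.77 and -6.54 for acss2l. The gap was wider for mpeg1.3, which had 0.107 CPM in LEN deletion and 0.312 CPM in wild-type fins at 2 dpa. At 0 dpa mpeg1.3 had 23.5 CPM in LEN deletion and 2.28 CPM in wild-type fins (log2FC -5.75, SE 0.95, adjusted p = 0.0118). With all libraries kept, its call was lost in the edgeR test without the genotype block (adjusted p = 0.0668). It was also lost with an earlier form of the quasi-likelihood estimate (adjusted p = 0.0748). The call was lost as well without the LEN deletion library (log2FC -5.35) or the wild-type library (log2FC -6.85) at 2 dpa, in fits that also lacked the block. Counts of close relatives, such as keratins, mpeg1 genes, chemokines, actinodins and claudins, depend on how shared reads were counted and are uncertain to that extent.

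**Figure D2:**
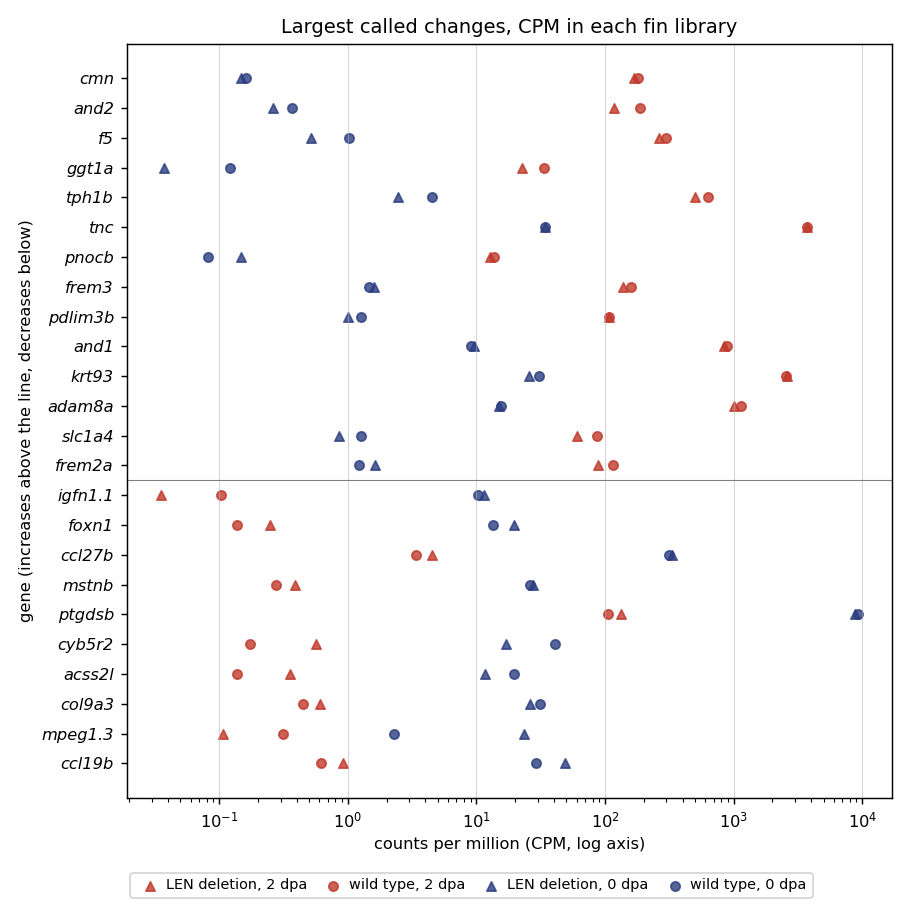
CPM on a log axis (horizontal) of the 14 largest increases and 10 largest decreases (vertical) in each library; red marks 2 dpa, blue marks 0 dpa, triangles are LEN deletion and circles wild-type fins. The 24 genes were chosen among those without overlap between the days, so that red and blue points are apart by choice. In mpeg1.3 the blue points of the genotypes differ, at 23.5 and 2.28 CPM.

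Cell division genes rose together. Of 56 tested mitosis genes 54 were higher at 2 dpa (96.4%, against 31.3% of all genes tested), with a median log2 fold change of 2.73, where the median of all genes was 0.00. The exceptions were cdca7a and stmn1a, which were not called. The kinase plk1, which drives mitotic entry and exit, had 105 and 99.9 CPM at 2 dpa, against 5.47 and 4.80 CPM at 0 dpa (log2FC 4.32, SE 0.13). The spindle motors kif11 and kif23 had log2FC values of 3.96 and 3.54, and kpna2, a nuclear import receptor, one of 4.14. The proliferation marker mki67 had 274 and 269.9 CPM at 2 dpa, against 43.7 and 32 CPM at 0 dpa (log2FC 2.86, SE 0.13). DNA replication genes moved less but as uniformly: 51 of 53 were higher (96.2%), with a median log2FC of 1.21. Among them rrm2, a subunit of the enzyme that makes deoxynucleotides, had 315 and 291 CPM at 2 dpa, against 71 and 72.5 CPM at 0 dpa (log2FC 2.08). The flap endonuclease fen1 (log2FC 1.68) and orc3 of the origin recognition complex (log2FC 1.80) also rose, while tipin and timeless were not called.

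Inhibitors of the cell cycle and p53 targets showed no such common direction, with 8 of 27 higher and 9 lower and a median log2FC of 0.05. The antiproliferative factor tob1a fell to 54.8 and 60.9 CPM at 2 dpa, against 162 and 184 CPM at 0 dpa (log2FC -1.58), and baxa, which promotes cell death, rose to 78.6 and 75.6 CPM at 2 dpa, against 33.7 and 37.1 CPM at 0 dpa (log2FC 1.12). Of 62 chromatin modifiers 30 were higher and 11 lower (median log2FC 0.22). The histone variant h2afvb (log2FC 1.86), the high mobility group gene hmgb2b (log2FC 1.49) and uhrf1, which maintains DNA methylation at replication (log2FC 1.56), rose, and the remodelling ATPase smarca2 fell (log2FC -1.63).

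**Figure D3:**
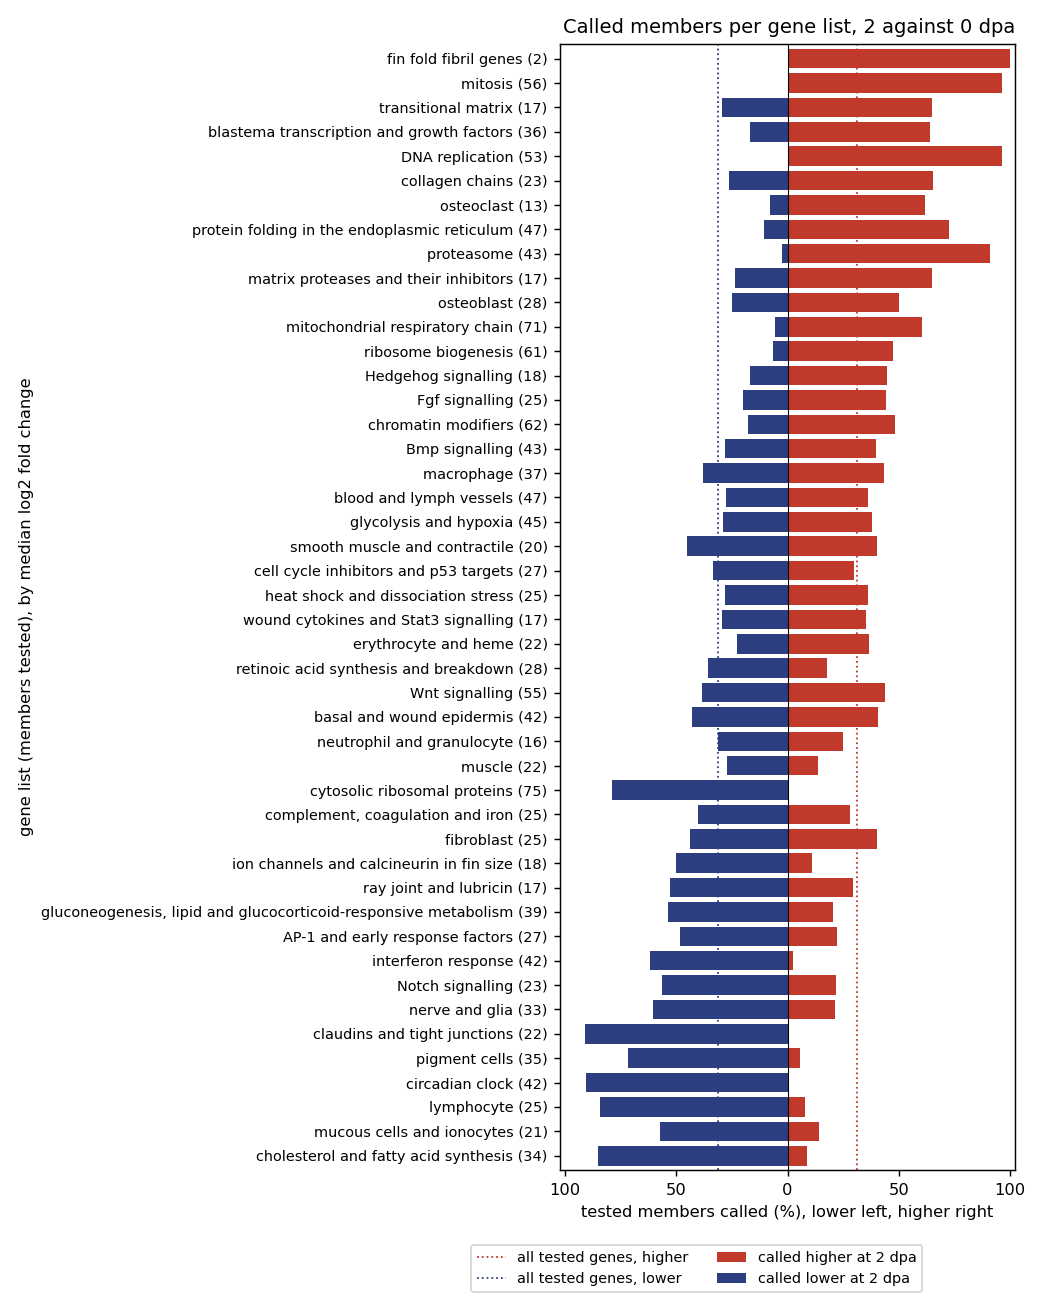
Share of tested members of each of 46 gene lists (vertical, with the number tested) called higher at 2 dpa (red, right) or lower (blue, left), in percent (horizontal), ordered by median log2 fold change. Dotted lines mark the shares over all tested genes, 31.3% higher and 31.4% lower; fin fold fibril genes (100% higher, 2 tested) and mitosis (96.4% higher) stand at one end, and cholesterol and fatty acid synthesis (85.3% lower) at the other.

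Protein production and disposal split by branch. Proteasome subunits rose, with 39 of 43 higher (90.7%) and psmf1, an inhibitor of the proteasome, lower (log2FC -0.41); the median log2FC was 0.89. The catalytic subunit psmb7 had 150.1 and 159 CPM at 2 dpa, against 24.1 and 37.7 CPM at 0 dpa (log2FC 2.35), and the regulatory ATPase psmc1a 155 and 150.1 CPM at 2 dpa, against 57 and 64.6 CPM at 0 dpa (log2FC 1.33). Of 71 genes of the mitochondrial respiratory chain 43 were higher (60.6%) and 4 lower, with a median log2FC of 0.40. The cytochrome c gene cycsb rose (log2FC 1.22), whereas cox4i2, a cytochrome oxidase subunit linked to low oxygen in mammals, fell (log2FC -2.01). Ribosome biogenesis factors were higher in 29 of 61 cases (47.5%, median log2FC 0.27), led by npm1a, a nucleolar chaperone (log2FC 1.2). Cytosolic ribosomal proteins went the other way by a small amount: 59 of 75 were lower (78.7%), with a median log2FC of -0.36. The gene rpl5b had 903 and 899 CPM at 2 dpa, against 1453 and 1518 CPM at 0 dpa (log2FC -0.72, SE 0.10), and rps18 had 720.5 and 786 CPM at 2 dpa, against 1142 and 1211 CPM at 0 dpa (log2FC -0.64).

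Matrix genes rose more often than they fell. Of 17 genes of the transitional matrix, the provisional matrix of regenerating appendages, 11 were higher (64.7%) and 5 lower, with a median log2FC of 2.11. Summed over the 19 found, levels were 41655 CPM in LEN deletion and 38706 CPM in wild-type fins at 2 dpa. At 0 dpa they were 6846 CPM in LEN deletion and 7328 CPM in wild-type fins. At 2 dpa fibronectin genes took most of these reads. The gene fn1b had 24998 and 22355 CPM at 2 dpa, against 1009.7 and 1286 CPM at 0 dpa (log2FC 4.37, SE 0.16), and fn1a had 4985 and 4482 CPM at 2 dpa, against 436 and 435 CPM at 0 dpa (log2FC 3.44). The collagen cross-linker loxl2b (log2FC 2.84) and hmmr, which binds hyaluronan and also acts at the mitotic spindle (log2FC 3.55), rose as well.

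Of 23 collagen chains 15 were higher and 6 lower (median log2FC 1.02). The cartilage-type chain col9a1a had 30.2 and 42.3 CPM at 2 dpa, against 0.819 and 0.976 CPM at 0 dpa (log2FC 5.32). Its partner in mammalian collagen IX, col9a3, moved the other way, with 0.605 and 0.451 CPM at 2 dpa, against 26.1 and 31.4 CPM at 0 dpa (log2FC -5.76). The epidermal anchoring collagen col17a1a fell to 139 and 111 CPM at 2 dpa, against 2026 and 1615 CPM at 0 dpa (log2FC -3.86), and col8a2 fell to 3.63 and 3.09 CPM at 2 dpa, against 59.2 and 56.4 CPM at 0 dpa (log2FC -4.11). Enzymes that hydroxylate and fold collagen rose with the list of protein folding in the endoplasmic reticulum, of which 34 of 47 were higher (72.3%) and 5 lower (median log2FC 1.00). The lysyl hydroxylase plod2 had 157 and 156 CPM at 2 dpa, against 9.12 and 11.7 CPM at 0 dpa (log2FC 3.92, SE 0.13). The collagen chaperone serpinh1a had 572 and 597 CPM at 2 dpa, against 83 and 101 CPM at 0 dpa (log2FC 2.67), and plod1a (log2FC 2.28) and the prolyl hydroxylase subunit p4ha1b (log2FC 2.73) moved with them. The 5 lower members were ern1, ddit3, dnajb9a, dnajb9b and atf4b, genes of the unfolded protein response, named here after their values were seen, with log2FC values between -0.83 and -0.30.

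Matrix proteases and their inhibitors were higher in 11 of 17 cases (64.7%) and lower in 4, with a median log2FC of 0.88. The membrane protease mmp14b had 1148 and 1309.9 CPM at 2 dpa, against 201 and 223 CPM at 0 dpa (log2FC 2.53). The gelatinase mmp9, made by wound epidermis, osteoclasts and leukocytes, had 306 and 358 CPM at 2 dpa, against 122 and 145 CPM at 0 dpa (log2FC 1.32, SE 0.10). Against this direction, mmp30 fell to 10.6 and 8.88 CPM at 2 dpa, against 57 and 60.3 CPM at 0 dpa (log2FC -2.59), and the urokinase gene plaub fell (log2FC -1.88).

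Genes of the blastema rose, with 23 of 36 tested transcription and growth factors higher (63.9%) and 6 lower (median log2FC 1.28). The ligand fgf20a, which zebrafish need to start a fin blastema, had 18 and 19.1 CPM at 2 dpa, against 0.261 and 0.366 CPM at 0 dpa (log2FC 5.87, SE 0.27, adjusted p = 5.04e-08). The ratio of the day means in CPM was 59.2. The activin subunit inhbaa had 82.1 and 101 CPM at 2 dpa, against 11.6 and 13.6 CPM at 0 dpa (log2FC 2.85), and igf2b, an insulin-like growth factor, 259 and 288 CPM at 2 dpa, against 27.7 and 40.2 CPM at 0 dpa (log2FC 3.03). The heparin-binding growth factor gene mdka had 1201 and 1178 CPM at 2 dpa, against 161 and 202 CPM at 0 dpa (log2FC 2.72). The homeobox gene msxb, a marker of the distal blastema, had 124 and 125 CPM at 2 dpa, against 46.5 and 48.7 CPM at 0 dpa (log2FC 1.39). Retinaldehyde dehydrogenase aldh1a2, which makes retinoic acid, had 186 and 181 CPM at 2 dpa, against 18.2 and 21.1 CPM at 0 dpa (log2FC 3.23, SE 0.12).

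Of all 28 tested genes of the retinoic acid list 5 were higher and 10 lower (35.7%, against 31.4% of all genes tested), with a median log2FC of -0.03. The binding protein crabp2b (log2FC 2.59) and the degrading enzyme cyp26c1 (log2FC 2.39) rose with aldh1a2, while bco2a, a carotenoid-cleaving oxygenase, fell to 1.67 and 1.73 CPM at 2 dpa, against 57.9 and 54.7 CPM at 0 dpa (log2FC -5.04).

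Of 25 tested genes of Fgf signalling 11 were higher (44%) and 5 lower. The Fgf-responsive factor etv4 had 177 and 179 CPM at 2 dpa, against 12.2 and 13 CPM at 0 dpa (log2FC 3.82, SE 0.12). A related factor, etv5b, rose by 2.71 and the feedback inhibitor spry4 by 1.71 on the log2 scale. The receptor fgfr4 had 16.9 and 20.2 CPM at 2 dpa, against 88.4 and 80.7 CPM at 0 dpa (log2FC -2.19), and fgfr2 (log2FC -1.09) and fgfr3 (log2FC -0.98) were lower too, whereas fgfr1a and fgfr1b were not called.

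Wnt genes split almost evenly, with 24 of 55 higher and 21 lower and a median log2FC of -0.05. The Wnt target and effector lef1 had 241 and 258 CPM at 2 dpa, against 17.9 and 19.7 CPM at 0 dpa (log2FC 3.73, SE 0.11). The ligand wnt5a had 53.9 and 56 CPM at 2 dpa, against 3.76 and 3.70 CPM at 0 dpa (log2FC 3.88), and the secreted dkk3b had 315 and 342 CPM at 2 dpa, against 30.6 and 38.2 CPM at 0 dpa (log2FC 3.26). A different ligand, wnt11r, fell to 5.80 and 6.21 CPM at 2 dpa, against 79.5 and 87.5 CPM at 0 dpa (log2FC -3.80).

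Of 18 Hedgehog genes 8 were higher (44.4%) and 3 lower. The ligand shha, made by epidermis over the rays, had 12.2 and 13.2 CPM at 2 dpa, against 0.223 and 0.244 CPM at 0 dpa (log2FC 5.74, SE 0.31). Its 0 dpa levels rest on 6 reads in each library. The transcription factor gli2a rose (log2FC 2.27), and the co-receptor gas1b fell (log2FC -1.15). Bmp genes were higher in 17 of 43 cases (39.5%) and lower in 12. The processing protease bmp1a (log2FC 2.1) and the follistatin-like genes fstl1a (log2FC 3.2) and fstl1b (log2FC 1.74) rose, while the ligand bmp3 fell to 8.01 and 7.80 CPM at 2 dpa, against 104 and 111 CPM at 0 dpa (log2FC -3.76). Notch genes leaned lower, with 5 of 23 higher and 13 lower (56.5%, median log2FC -0.73). The ligands dlc (log2FC -2.76) and dld (log2FC -2.57) fell, and the modulator lfng rose to 239 and 218 CPM at 2 dpa, against 28.5 and 27 CPM at 0 dpa (log2FC 3.04), as did the target her6 (log2FC 1.65).

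The list of AP-1 and early response factors leaned lower at this day, and that of wound cytokines and Stat3 genes did not. Of 27 AP-1 and early response factors 6 were higher and 13 lower (48.1%, median log2FC -0.67). The AP-1 subunit junba had 552 and 540.4 CPM at 2 dpa, against 67 and 76.2 CPM at 0 dpa (log2FC 2.93, SE 0.11), and fosl2 had 469 and 505 CPM at 2 dpa, against 88.3 and 106 CPM at 0 dpa (log2FC 2.33). A further subunit, fosl1a, differed between genotypes in level, with 9.33 CPM in LEN deletion and 21.5 CPM in wild-type fins at 2 dpa, against 3.5 CPM in LEN deletion and 5.49 CPM in wild-type fins at 0 dpa (log2FC 1.72, adjusted p = 2.33e-05). Its call was lost without the LEN deletion library at 0 dpa (log2FC 1.49, adjusted p = 0.330) and without the wild-type library at 0 dpa (log2FC 2.13, adjusted p = 0.222). The glucocorticoid-responsive klf9 fell to 2.81 and 3.95 CPM at 2 dpa, against 27 and 60.2 CPM at 0 dpa (log2FC -3.63), and mycb, a Myc factor, fell too (log2FC -1.69). Wound cytokines and Stat3 genes split 6 higher and 5 lower of 17. The feedback inhibitor socs3b rose (log2FC 1.69), as did crlf1b, a soluble cytokine receptor (log2FC 1.52), and the growth factor csf1b fell (log2FC -1.10). Of 25 heat shock and dissociation stress genes 9 were higher (36%) and 7 lower (28%), with a median log2FC of 0.04. These shares are near those over all genes tested, 31.3% higher and 31.4% lower.

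Bone genes moved in both directions. Of 28 osteoblast genes 14 were higher (50%) and 7 lower, with a median log2FC of 0.52. The mineral matrix gene scpp5, known from teleost teeth and scales, had 479 reads over the 2 libraries at 2 dpa (8.01 and 8.81 CPM) and no reads at 0 dpa, which is at least 146-fold higher with a floor of 3 reads over the group. The endopeptidase phex, which acts in mineralisation, had 57.5 and 57.2 CPM at 2 dpa, against 9.12 and 12 CPM at 0 dpa (log2FC 2.45), and the early osteoblast factor dlx5a had 112 and 114 CPM at 2 dpa, against 35.1 and 30.2 CPM at 0 dpa (log2FC 1.79). The collagen chain col10a1a of fin osteoblasts had 1098 and 1258 CPM at 2 dpa, against 512 and 620.3 CPM at 0 dpa (log2FC 1.06). Osteocalcin, bglap, a product of mature osteoblasts, fell to 1.39 and 1.73 CPM at 2 dpa, against 53.5 and 58 CPM at 0 dpa (log2FC -5.16, SE 0.16). The change of sp7 was small (log2FC 0.76, SE 0.23, adjusted p = 0.0153). Its adjusted p was 0.0692 without the LEN deletion library at 2 dpa (log2FC 0.85), 0.148 without the wild-type library at 2 dpa (log2FC 0.65), 0.0735 without the wild-type library at 0 dpa (log2FC 0.48) and 0.0651 with DESeq2.

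Osteoclast genes were higher in 8 of 13 cases (61.5%, median log2FC 1.01). The fusion gene ocstamp had 3.99 and 4.75 CPM at 2 dpa, against 0.112 and 0.0813 CPM at 0 dpa (log2FC 5.42, SE 0.43). Its 0 dpa levels rest on 3 and 2 reads, which leaves the size of the fold uncertain. The proton pump subunit tcirg1b had 124 and 114 CPM at 2 dpa, against 60.5 and 46.4 CPM at 0 dpa (log2FC 1.17). Carbonic anhydrase ca2, which red cells also make, rose by 1.16 on the log2 scale. Mitfa, which this list shares with pigment cells, was its lower member (log2FC -1.38, named after its value was seen).

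Of 17 genes of ray joints and lubricin 9 were lower (52.9%) and 5 higher. Lubricin, prg4a, the lubricant of joints, had 94.5 and 80.7 CPM at 2 dpa, against 1247 and 1537 CPM at 0 dpa (log2FC -3.99, SE 0.15, adjusted p = 2.15e-07). The cartilage matrix gene chad (log2FC -3.19) and irx1a, an Iroquois factor (log2FC -2.1), fell, and hoxa13a, a factor of distal fin identity, rose to 72.8 and 79.6 CPM at 2 dpa, against 36.4 and 40.1 CPM at 0 dpa (log2FC 0.99). Fibroblast genes divided into 10 higher and 11 lower of 25 (median log2FC -0.43). Beside tph1b and and1, which rose as given above, the tendon gene tnmd fell to 7.97 and 8.18 CPM at 2 dpa, against 53.3 and 54.8 CPM at 0 dpa (log2FC -2.74), and the regulator of G protein signalling rgs5a, also of pericytes, fell to 14.2 and 13.2 CPM at 2 dpa, against 105 and 129 CPM at 0 dpa (log2FC -3.08).

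Keratins of the epidermis changed in both directions and junction genes fell. Of 42 genes of basal and wound epidermis 17 were higher and 18 lower, with a median log2FC of -0.13. Summed over the 44 found, levels were 131163 CPM in LEN deletion and 124247 CPM in wild-type fins at 2 dpa. At 0 dpa they were 133126 CPM in LEN deletion and 157607 CPM in wild-type fins. Beside the rise of krt93 given above, krtt1c19e, a keratin of basal epidermis, fell to 56.1 and 41 CPM at 2 dpa, against 2284 and 2023 CPM at 0 dpa (log2FC -5.49, SE 0.13). The change of krt5 was small (log2FC -0.37, SE 0.13, adjusted p = 0.0327) and lost its call without the LEN deletion library at 2 dpa (log2FC -0.40, adjusted p = 0.212), without the wild-type library at 2 dpa (log2FC -0.34, adjusted p = 0.311) and in 1 fit of all 18 libraries (adjusted p = 0.375). Claudins and other tight junction genes, which seal the skin barrier, were lower in 20 of 22 cases (90.9%, median log2FC -1.05). Occludin, oclnb, had 57 and 56.4 CPM at 2 dpa, against 232 and 246 CPM at 0 dpa (log2FC -2.07), cingulin, cgnb, had 16.1 and 16.6 CPM at 2 dpa, against 64.7 and 61.9 CPM at 0 dpa (log2FC -1.95), and the claudins cldnf (log2FC -1.78) and cldnh (log2FC -1.69) fell by similar amounts. Of 21 mucous cell and ionocyte genes 12 were lower (57.1%, median log2FC -1.57) and 3 higher. The mucous cell factor foxa3 (log2FC -2.93) and agr2, needed for mucin folding (log2FC -2.36), fell, and so did icn2, an S100-type calcium-binding gene, to 321 and 334 CPM at 2 dpa, against 1160.3 and 1314 CPM at 0 dpa (log2FC -1.92).

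Of 25 lymphocyte genes 21 were lower (84.0%, median log2FC -1.47), with a median log2 ratio of -1.72 in LEN deletion and -1.19 in wild-type fins. Summed over the 28 found, levels were 297 CPM in LEN deletion and 274 CPM in wild-type fins at 2 dpa, against 656 CPM in LEN deletion and 471 CPM in wild-type fins at 0 dpa. The T cell kinase gene itk had 2.1 and 1.28 CPM at 2 dpa, against 12.8 and 9.64 CPM at 0 dpa (log2FC -2.74), and zap70, a second such kinase, had 2.17 and 1.42 CPM at 2 dpa, against 14 and 7.97 CPM at 0 dpa (log2FC -2.60). The cytokine receptors il7r (log2FC -2.12) and il2rb (log2FC -2.57) fell too. Interferon response genes were lower in 26 of 42 cases (61.9%, median log2FC -0.71). The invariant chain cd74a, a chaperone of MHC class II, had 473 and 386 CPM at 2 dpa, against 3143 and 2101 CPM at 0 dpa (log2FC -2.59, SE 0.12), and the light chain gene b2ml had 640.3 and 573 CPM at 2 dpa, against 2652 and 1897 CPM at 0 dpa (log2FC -1.89). The paralog cd74b (log2FC -2.35) and the class I gene mhc1zba (log2FC -1.73) followed. Uninjured LEN deletion fins had the higher level of each of these 4 genes at 0 dpa. Log2 ratios in LEN deletion and wild-type fins were -2.73 and -2.44 for cd74a and -2.05 and -1.73 for b2ml. They were -2.48 and -2.22 for cd74b, and -1.82 and -1.64 for mhc1zba. Whether the difference between the 0 dpa pools has a part in the decrease was not tested.

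Macrophage genes were higher in 16 of 37 cases (43.2%) and lower in 14. The apolipoprotein gene apoc1l had 13.3 and 18 CPM at 2 dpa, against 0.931 and 1.06 CPM at 0 dpa (log2FC 3.97), and slc7a7, an amino acid carrier needed by microglia and other macrophages, had 45.9 and 40.1 CPM at 2 dpa, against 12 and 8.95 CPM at 0 dpa (log2FC 2.04). The perforin-like mpeg1.2 fell to 41 and 35.4 CPM at 2 dpa, against 196 and 134 CPM at 0 dpa (log2FC -2.09). Of 16 neutrophil and granulocyte genes 4 were higher and 5 lower (31.3%), which is close to the share over all genes. Lysozyme, lyz, fell to 0.178 and 0.104 CPM at 2 dpa, against 3.91 and 5.49 CPM at 0 dpa (log2FC -5.01), and the chemotactic lect2l fell to 115 and 84.7 CPM at 2 dpa, against 464 and 281 CPM at 0 dpa (log2FC -1.87). The gelatinase mmp9, also on this list, rose as given above (log2FC 1.32).

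Pigment cell genes were lower in 25 of 35 cases (71.4%, median log2FC -1.28). The melanosome transport gene mlpha had 5.66 and 4.82 CPM at 2 dpa, against 22.7 and 18.8 CPM at 0 dpa (log2FC -1.98), and the neural crest factor sox10, of pigment cells and glia, 8.33 and 6.21 CPM at 2 dpa, against 27.3 and 23.6 CPM at 0 dpa (log2FC -1.81). The channel trpm1b (log2FC -1.91) and the endothelin receptor ednrba (log2FC -2.42) fell. Of 33 nerve and glia genes 20 were lower (60.6%) and 7 higher (median log2FC -0.81). The myelin gene plp1b had 0.392 and 0.416 CPM at 2 dpa, against 18.5 and 17.4 CPM at 0 dpa (log2FC -5.45, SE 0.24), and egr2b, a factor of myelinating Schwann cells, fell (log2FC -2.95). A tubulin gene on this list, tubb5, rose to 359.9 and 412 CPM at 2 dpa, against 22 and 27.1 CPM at 0 dpa (log2FC 3.98), and tubulins are made by many cell types.

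Vessel genes were near the background, with 17 of 47 higher (36.2%) and 13 lower (27.7%). The endothelial rasip1, needed for lumen formation in mammals, rose to 17.5 and 17.8 CPM at 2 dpa, against 4.47 and 5.69 CPM at 0 dpa (log2FC 1.80), and von Willebrand factor, vwf, fell to 3.03 and 3.29 CPM at 2 dpa, against 14.3 and 13.3 CPM at 0 dpa (log2FC -2.12), as did the lymphatic marker lyve1a (log2FC -1.60). Red cell and heme genes had 8 of 22 higher and 5 lower (median log2FC 0.00). Muscle genes, of which 22 of 41 found were tested, had 3 higher and 6 lower, and their summed level was 187 CPM in LEN deletion and 183 CPM in wild-type fins at 2 dpa, against 230.1 CPM in LEN deletion and 231 CPM in wild-type fins at 0 dpa. Smooth muscle and contractile genes had 8 of 20 higher and 9 lower. Complement, coagulation and iron genes had 7 of 25 higher and 10 lower: heme oxygenase, hmox1a, rose to 48.7 and 47.7 CPM at 2 dpa, against 13.4 and 13.1 CPM at 0 dpa (log2FC 1.86), and complement factor D, cfd, fell to 42.1 and 29 CPM at 2 dpa, against 908 and 876 CPM at 0 dpa (log2FC -4.67). Of 18 genes on the list of ion channels and calcineurin in fin size 9 were lower (50%) and 2 higher. The potassium channel gene kcnk5a had 9.08 and 7.01 CPM at 2 dpa, against 19.4 and 15.3 CPM at 0 dpa (log2FC -1.11).

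Many metabolic genes fell. Of 39 genes of gluconeogenesis, lipid use and the glucocorticoid response 21 were lower (53.8%) and 8 higher (median log2FC -0.67). Tyrosine aminotransferase, tat, had 1.42 and 0.798 CPM at 2 dpa, against 54.4 and 50.3 CPM at 0 dpa (log2FC -5.56). The glucocorticoid target fkbp5 had 36.1 and 55.9 CPM at 2 dpa, against 558 and 892 CPM at 0 dpa (log2FC -3.97, SE 0.11), and tsc22d3, another such target, had 64.6 and 93.5 CPM at 2 dpa, against 268 and 341 CPM at 0 dpa (log2FC -1.96). Glycolysis and hypoxia genes did not move together, with 17 of 45 higher and 13 lower. The growth factor binding protein igfbp1a, a hypoxia target, rose to 61.2 and 94 CPM at 2 dpa, against 6.22 and 8.58 CPM at 0 dpa (log2FC 3.38), and p4ha1a rose (log2FC 2.15).

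Clock genes fell in 38 of 42 cases (90.5%, median log2FC -1.41). The repressor nr1d2a had 8.01 and 10.7 CPM at 2 dpa, against 133 and 175 CPM at 0 dpa (log2FC -4.04, SE 0.12), the output factor hlfa had 33.3 and 39.6 CPM at 2 dpa, against 248 and 277 CPM at 0 dpa (log2FC -2.85), and nfil3-6 had 18.7 and 23.6 CPM at 2 dpa, against 194 and 189.9 CPM at 0 dpa (log2FC -3.19). The light-induced per2 had 37.5 and 41 CPM at 2 dpa, against 141 and 156 CPM at 0 dpa (log2FC -1.92). Levels of clock genes vary with the hour. The hour at which fins were collected is not given in the sources used here. Its part in the decrease was not tested.

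Sterol and fatty acid synthesis had the lowest median of the 46 lists, -2.1, with 29 of 34 genes lower (85.3%) and 3 higher. The sterol synthesis gene hsd17b7 had 30.0 and 21.8 CPM at 2 dpa, against 1003 and 1042 CPM at 0 dpa (log2FC -5.32, SE 0.16). The fatty acid desaturase fads2 had 2.31 and 1.9 CPM at 2 dpa, against 52.7 and 54.2 CPM at 0 dpa (log2FC -4.66), the stearoyl desaturase scd had 2.78 and 3.05 CPM at 2 dpa, against 17.5 and 25.5 CPM at 0 dpa (log2FC -2.87), and the regulator srebf1 had 13.1 and 15.4 CPM at 2 dpa, against 58.3 and 51.3 CPM at 0 dpa (log2FC -1.95). Steps early in the pathway, named after their values were seen, behaved alike: HMG-CoA synthase, hmgcs1, had 74.6 and 58.8 CPM at 2 dpa, against 852 and 1363 CPM at 0 dpa (log2FC -4.02), and HMG-CoA reductase, hmgcra, the rate-limiting enzyme, had 9.40 and 7.21 CPM at 2 dpa, against 171 and 252 CPM at 0 dpa (log2FC -4.65). Its paralog hmgcrb went slightly the other way (log2FC 0.33). The median log2 ratio was -1.89 in LEN deletion and -2.36 in wild-type fins.

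The level of this list in uninjured fins differed between batches. In a joint scaling of 8 whole-fin libraries, the 34 genes summed to 1253 CPM in LEN deletion and 1166 CPM in wild-type fins at 2 dpa, against 4814 CPM in LEN deletion and 6610 CPM in wild-type fins at 0 dpa of the same batch. Titles of batch 1 name no genotype, and its fins are taken here as wild type. In batch 1 the genes summed to 952 and 926 CPM at 4 dpa, against 1437 and 1317 CPM at 0 dpa. The 2 dpa fins were thus near the uninjured fins of batch 1 in this sum, and the uninjured fins of batch 3 stood above all 6 other libraries. For hmgcs1 on this scale, the 0 dpa levels were 798 and 1270 CPM in batch 3, where batch 1 had 27.2 and 18.4 CPM. The decrease at 2 dpa rests on the 2 uninjured pools of batch 3.

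**Figure D4:**
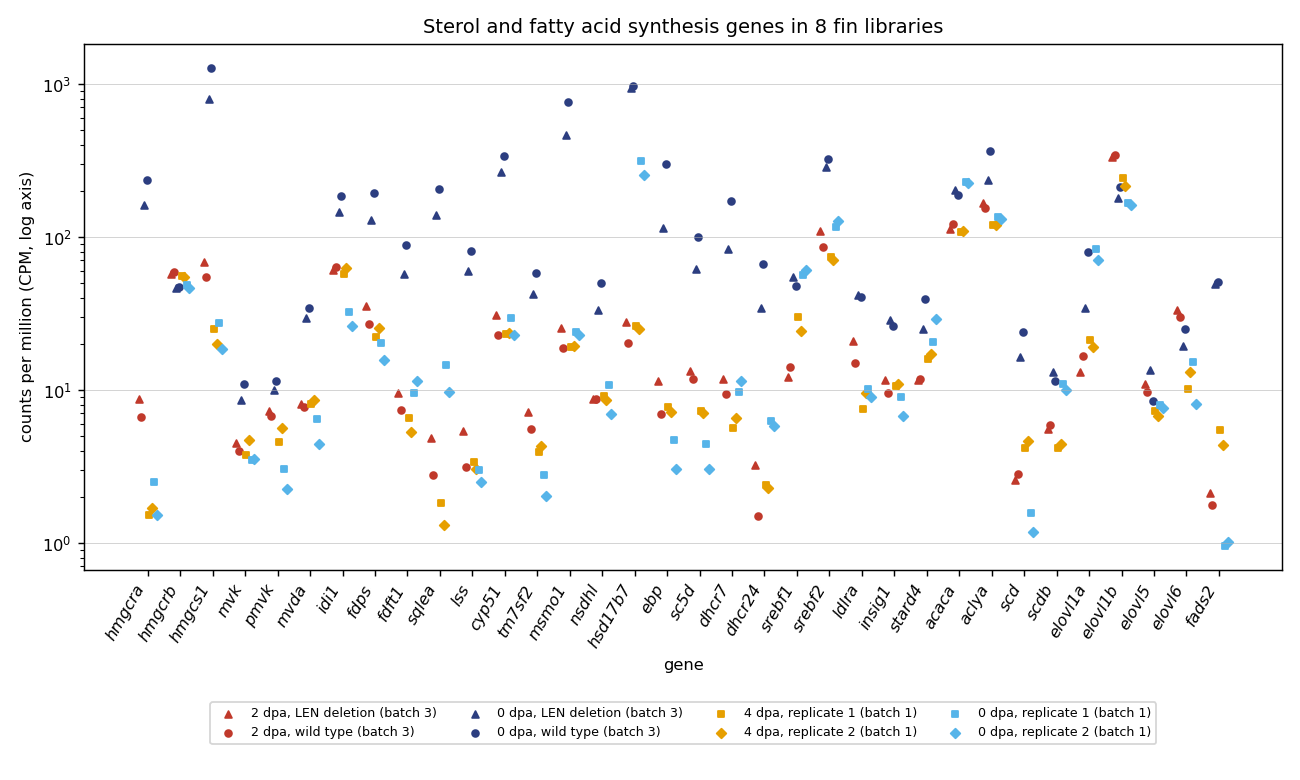
CPM on a log axis (vertical) of the 34 tested genes of sterol and fatty acid synthesis (horizontal) in 8 whole-fin libraries, scaled together; triangles and circles are batch 3 (red 2 dpa, dark blue 0 dpa), squares and diamonds batch 1 (orange 4 dpa, light blue 0 dpa). Dark blue points lie high for most genes, as for hmgcs1 at 798 and 1270 CPM, where light blue points are at 27.2 and 18.4 CPM.

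The 2 dpa response was then set against that of whole fins at 4 dpa and 0 dpa in batch 1 (2 libraries each, taken as wild type), which shares no library with it. Day and batch cannot be told apart in this comparison, and the LEN deletion is present on 1 side only. Across 12175 genes the log2 fold changes of the 2 responses had a Pearson r of 0.726 and a Spearman rho of 0.749, as a description across genes. In 1 fit of the 8 libraries, 3533 of these genes were called higher and 3728 lower at 2 dpa. At 4 dpa 4026 were called higher and 3894 lower. Genes higher at both days numbered 2755, which is 78.0% of those higher at 2 dpa and 68.4% of those higher at 4 dpa. Genes lower at both numbered 2702 (72.5% of the 2 dpa list and 69.4% of the 4 dpa list). The calls of the 2 responses had 99 genes higher at 2 dpa and lower at 4 dpa, and 186 lower at 2 dpa and higher at 4 dpa. The difference of the responses itself was called for 2551 genes (21% of those tested), 1043 of them higher at 2 dpa (8.57%) and 1508 lower (12.4%). Leaving out a batch 3 library here kept the genotype block, so that the 2 dpa response then rested on the other genotype alone, whichever day was left out. The median difference of all genes was -0.0457 and -0.0495 without the LEN deletion and wild-type libraries at 0 dpa of batch 3, and -0.0451 and -0.0499 without those at 2 dpa. Without replicates 1 and 2 at 4 dpa it was -0.0320 and -0.0397. Fewer genes were called in each of these fits than with all 8 libraries. Scaling by library size alone put the median difference of all genes at -0.44 and gave 389 higher and 3185 lower genes, so list medians below are to be read against that of all genes, -0.05.

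Many fibroblast, collagen and osteoblast genes were lower at 2 dpa than in the 4 dpa response. The difference was called lower for 20 of 25 fibroblast genes (median log2FC -0.45 at 2 dpa and 1.53 at 4 dpa), 16 of 24 collagen chains (1.02 at 2 dpa and 2.15 at 4 dpa) and 14 of 28 osteoblast genes (0.51 at 2 dpa and 1.36 at 4 dpa). Vessel genes followed, with 23 of 47 lower (0.09 at 2 dpa and 0.73 at 4 dpa). Collagen chains in uninjured fins summed to 17987 CPM in LEN deletion and 19721 CPM in wild-type fins of batch 3, where batch 1 had 10954 and 11346 CPM. For the fibroblast list these sums were 2472 and 2477 CPM in batch 3, and 2289 and 2237 CPM in batch 1. The part of the uninjured levels was not tested. Elastin b, elnb, had the log2 fold changes -4.74 at 2 dpa and 1.99 at 4 dpa (difference -6.73, SE 0.68), and the small proteoglycan gene bgnb -4.37 at 2 dpa and 1.28 at 4 dpa (difference -5.65, SE 0.33). Uninjured fins of the batches differed in elnb, with 66.9 CPM in LEN deletion and 169 CPM in wild-type fins of batch 3, where batch 1 had 11.13 and 13.3 CPM, and the part of this in the difference was not tested. Sterol and fatty acid synthesis was lower for 26 of 34 genes (-2.12 at 2 dpa and -0.09 at 4 dpa), with the batch difference in uninjured fins given above. These 5 lists had between 14 and 31 lower calls and a negative median under the other scalings.

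The difference was called higher for 16 of 27 AP-1 and early response factors (median log2FC -0.69 at 2 dpa and -1.93 at 4 dpa), 22 of 43 genes of basal and wound epidermis (-0.15 at 2 dpa and -0.97 at 4 dpa) and 45 of 75 cytosolic ribosomal proteins (-0.38 at 2 dpa and -1.17 at 4 dpa). With library-size scaling these counts were 13, 16 and 5. The keratin krt93 had log2FC values of 6.49 at 2 dpa and 0.89 at 4 dpa (difference 5.6, SE 0.55). All 3 lists differed between batches in uninjured fins. Summed CPM of the ribosomal list at 0 dpa was 75780 in LEN deletion and 81774 in wild-type fins of batch 3, where batch 1 had 176099 and 242836. For the epidermis list it was 124736 in LEN deletion and 146851 in wild-type fins of batch 3, where batch 1 had 235520 and 290932. For the AP-1 list it was 3618 in LEN deletion and 3757 in wild-type fins of batch 3, where batch 1 had 7057 and 8833. The AP-1 sums after amputation were close, at 2155 and 2754 CPM at 2 dpa and 2380 and 1855 CPM at 4 dpa. The part of the uninjured levels in these differences was not tested.

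Among further lists, the difference was called lower for 10 of 18 transitional matrix genes, 16 of 47 genes of protein folding in the endoplasmic reticulum and 18 of 62 chromatin modifiers, beside 12.4% of all genes. Yet the transitional matrix sum was higher at 2 dpa, at 38321 CPM in LEN deletion and 35683 CPM in wild-type fins, where 4 dpa had 24241 and 22914 CPM. At 0 dpa this sum was 6415 and 6828 CPM in batch 3, and 6013 and 5458 CPM in batch 1. The difference was called higher for 8 of 25 Fgf signalling genes and lower for 4, beside 8.57% and 12.4% of all genes. The median difference of this list was 0.13, and library-size scaling gave 6 higher and 5 lower. Cell division was up at both days, with 8 of 56 mitosis genes called lower at 2 dpa (median log2FC 2.70 at 2 dpa and 3.07 at 4 dpa) and 7 of 53 replication genes (1.19 at 2 dpa and 1.48 at 4 dpa). Clock genes were down at both, with 4 of 42 called higher and 6 lower (-1.43 at 2 dpa and -1.38 at 4 dpa). Lymphocyte genes had 2 of 25 called higher and 5 lower (-1.48 at 2 dpa and -1.35 at 4 dpa). With library-size scaling the lower calls were 15 for mitosis, 27 for replication, 15 for clock and 6 for lymphocyte genes. A gene that is not called different is not shown to respond alike.

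**Figure D5:**
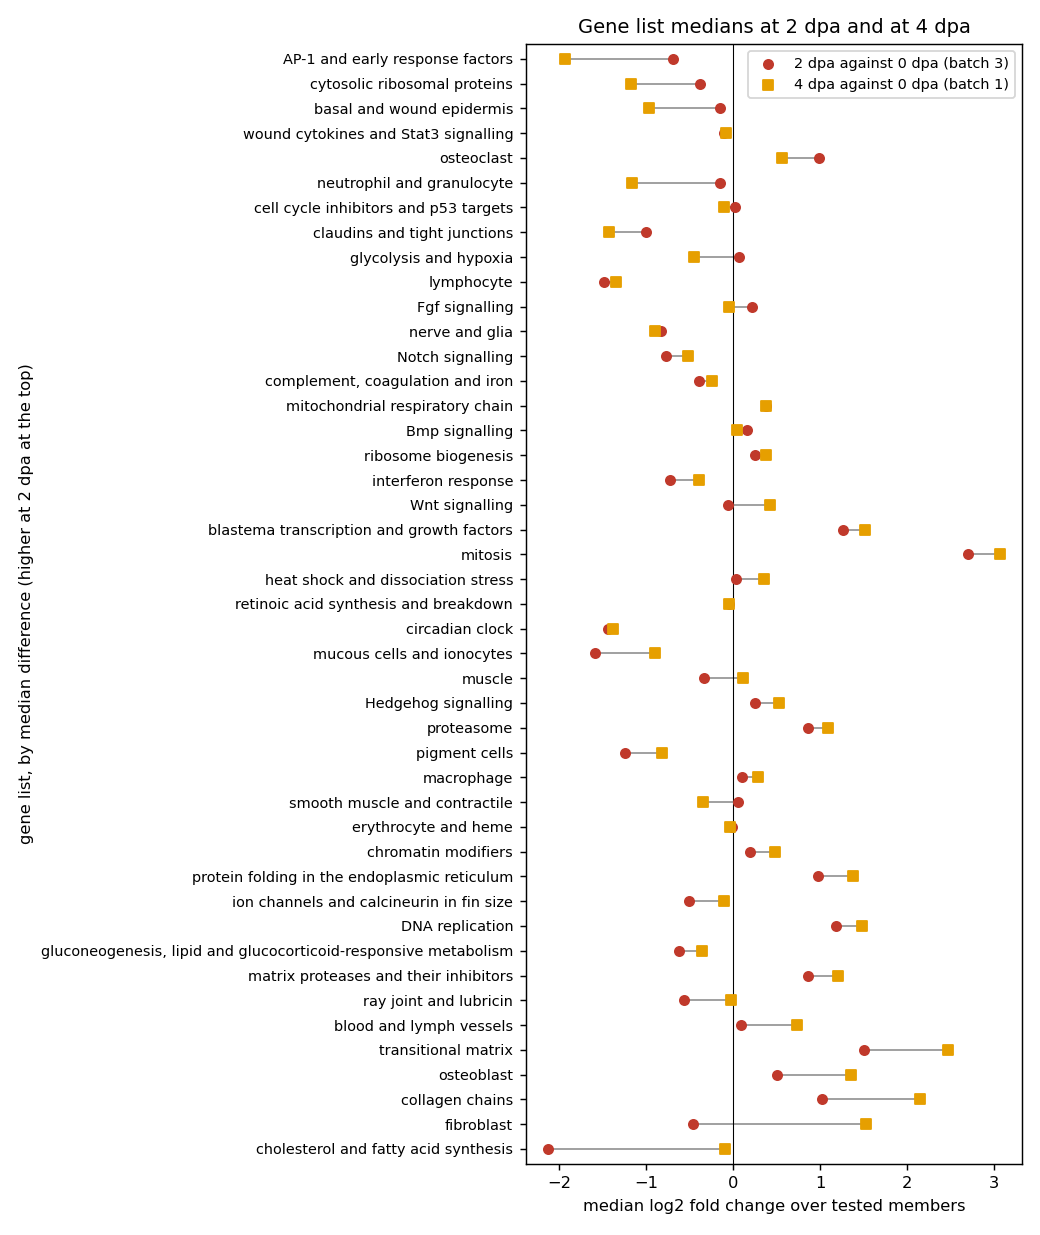
Median log2 fold change (horizontal) of the tested members of 45 gene lists (vertical) at 2 dpa in batch 3 (red circles) and at 4 dpa in batch 1 (orange squares), each against 0 dpa of its batch, ordered by the median difference. The fibroblast list lies at -0.45 at 2 dpa and 1.53 at 4 dpa, and AP-1 and early response factors at -0.69 at 2 dpa and -1.93 at 4 dpa.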

How the data were processed

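Messenger RNA of 4 whole-fin pools was measured with a stranded kit, per the labels' protocols. What the authors deposited are raw counts of reads for 14781 gene symbols in each library. The submitters' processing notes name Trim Galore 0.6.4, TopHat2 2.1.1, HTSeq 1.6.1 and the build danRer10. Annotation and strand setting were not given in the sources used here. Overlapping and antisense genes therefore cannot be told apart. Reads on no gene were 32.6% in LEN deletion and 33.2% in wild-type fins at 2 dpa, against 39.0% and 36.6% at 0 dpa. They stayed out of library sizes and tests, and the part of this difference between the days was not tested.

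Counts were tested with edgeR 4.0.16 in R 4.3.3: TMM scaling, the tool's expression filter, a robust quasi-likelihood test, genotype and day as terms (1 residual degree of freedom, a median of 9.2 prior degrees of freedom), two-sided, Benjamini-Hochberg adjustment over all genes tested, called at an adjusted p under 0.05. CPM values use the TMM factors of the libraries in a fit. Ratios within a genotype use a prior count of 2. The difference between responses is a contrast in 1 fit of 8 libraries. Batch 2 was left out, since its deposited names go against its labels. Same-day pools differed beyond counting noise (chi-square per degree of freedom 15.1 at 2 dpa and 38.6 at 0 dpa).

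Gene names are those of the deposited counts; 14519 of 14781 symbols matched a gene table of the assembly GRCz12tu, used only for older names. Of 1903 list genes in 46 lists 1622 were found. Lists are described by counts and medians. Named genes are the 14 largest increases and 10 largest decreases (called, mean of at least 5 CPM, no overlap, no clone names), 18 genes known from fin regeneration, of which il11a is not analysed here, up to 4 called members per list with the smallest p, and the 6 largest differences each way. The members, lists and rules were chosen with earlier results of these data known.

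Alternatives were DESeq2 1.42.0, limma-voom (limma 3.58.1), other scalings, no filter, no genotype block, 1 fit of 18 libraries, an earlier form of the quasi-likelihood estimate, and leaving out each library.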

Additional observations from a re-analysis of the deposited data

Results flagged for a closer look

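The response at 2 dpa in batch 3 differed from that at 4 dpa in batch 1 for 2551 genes by a test of the difference itself, and day and batch cannot be told apart. Of the 6 largest differences toward 2 dpa, cacna1ba, a calcium channel subunit, was 6.15 higher on the log2 scale. It had 2.65 CPM in LEN deletion and 3.71 CPM in wild-type fins at 2 dpa, against no reads in both at 0 dpa. Its fitted difference thus depends on the prior count of the fit. In batch 1 its level was higher, at 29.0 and 40.6 CPM at 4 dpa, against 3.83 and 3.25 CPM at 0 dpa. The others were krt93 (log2 difference 5.6), bhlha9, a basic helix-loop-helix factor (4.98), fosb, an AP-1 subunit (4.93), ankha, a pyrophosphate transporter (4.82), and ggt1a (4.76). In fosb the 2 dpa libraries were far apart, with 6.98 CPM in LEN deletion and 52.7 CPM in wild-type fins, against 11.3 CPM in LEN deletion and 24.5 CPM in wild-type fins at 0 dpa. Batch 1 had 55.5 and 76.8 CPM of fosb at 0 dpa. Uninjured fins of the batches also differed in bhlha9, at 1.05 and 1.40 CPM in batch 3 and 8.19 and 13.6 CPM in batch 1. For ankha these levels were 18.2 and 35.8 CPM in batch 3 and 133 and 161 CPM in batch 1. The part of these uninjured levels in the differences was not tested. For ggt1a the difference was 0.41 without replicate 1 at 0 dpa of batch 1, in which the gene had its reads at that day.

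The 6 largest differences toward 4 dpa were fads2 (log2 difference -6.99), elnb (-6.73), cyb5r2 (-6.59), fabp7a, a fatty acid binding protein (-6.15), mstnb (-5.73) and bgnb (-5.65). In fads2, elnb and cyb5r2 the uninjured fins of the 2 batches differed: fads2 was at 49.4 and 50.5 CPM at 0 dpa in batch 3 and at 0.96 and 1.02 CPM in batch 1, elnb was at 66.9 and 169 CPM in batch 3 and at 11.13 and 13.3 CPM in batch 1, and cyb5r2 was at 16.0 and 38.0 CPM in batch 3 and at 0.18 and 0.15 CPM in batch 1. For fabp7a the difference lay at 4 dpa, with 0.43 and 0.61 CPM at 2 dpa and 22.6 and 24.2 CPM at 4 dpa. For mstnb it lay at 2 dpa, with 0.36 and 0.26 CPM at 2 dpa and 15.5 and 12.9 CPM at 4 dpa.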

How the results depend on the processing

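The count of called genes at 2 dpa was 7453, and ran from 4679 to 7576 when 1 library was left out (4868 without the LEN deletion library at 2 dpa), where the lone library of a day is assumed to vary like the others. The fits without 1 library also lacked the genotype block, so that the count changes with both settings. DESeq2 called 5701 genes, and the other alternatives between 7088 and 7475. Of 197 named genes tested, 185 kept direction and call in each alternative run; 12 lost the call in at least 1 (crlf1a, ctgfa, cx30.3, fosl1a, irf8, krt5, mpeg1.3, mpx, rps28, slc16a3, sp7 and tob1b), and no direction turned. The difference between responses was called for 2551 genes, with 1309 to 3071 when 1 library was left out, 2431 with DESeq2, 2380 without the filter, 3574 with library-size scaling and 2771 in the fit of 18 libraries. With a replicate block in batch 1 it was 2499. Deviations of same-numbered replicates in batch 1 had a correlation of 0.0481, so the numbers were not taken to pair the samples; the 2 and 0 dpa groups share 1 replicate number, so no further pairing exists. Of the 12 genes named for that difference 8 kept their call, and cacna1ba, cyb5r2, fosb and ggt1a lost it in at least 1 alternative. Changes in genes with few reads at a day are limited by depth. Such genes include cmn, ggt1a, pnocb, shha and ocstamp at 0 dpa, and igfn1.1 at 2 dpa.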
